A study of Mus musculus with 30 samples.

Results

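The 6 genes described here, Pla2g1b, Pla1a, Ephx2, Slc28a1, Gpa33 and Myo1f, were chosen from the 12428 genes of the deposited table because their RNA was far lower in Kmt2c/Kmt2d double-KO cells than in Kmt2c-KO cells when both were in ethanol. The ethanol values chose the genes, so they are given as a description without a test. The rule for the choice did not use the tamoxifen libraries, and the tests below rest on them. The genes were chosen with earlier results of these data known, and both treatments were given to the same lines. These tests are therefore not fully independent of the choice.

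The cells were mouse embryonic stem cells in the naive state (C57BL/6J x 129), kept in serum and LIF with inhibitors of MEK and GSK3, and their RNA was read as tags from the 3' end. There were 10 groups of 3 libraries. The double-KO cells carried the genotype Kmt2cKO and Kmt2dKO with GRHL2-ERT, and received tamoxifen or ethanol for 16 h or 8 h. The first line they were set against was Kmt2cKO with the allele the labels write as Kmtd fl/fl, also carried GRHL2-ERT and received the same treatments. The second was Kmt2cKO with Kmtd fl/fl but without GRHL2-ERT, and received tamoxifen for 16 h or 8 h. GRHL2-ERT is the epithelial transcription factor GRHL2 in a form that tamoxifen switches on, and ethanol is the vehicle of tamoxifen. All groups therefore lacked Kmt2c. The GRHL2-ERT lines were clones selected for similar GRHL2 expression, so a difference between clones and a difference between genotypes cannot be told apart. Double-KO cells without GRHL2-ERT and wild-type cells were not analysed here. Nothing in the labels says that replicates came from separate cultures, so each p measures the spread between these libraries, which may be technical.

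KMT2C and KMT2D are histone methyltransferases that act at enhancers, the elements that raise transcription of genes in a given cell type. Most of the 6 genes are best known outside the embryonic stem cell. Pla2g1b encodes the secreted phospholipase A2 of pancreatic juice, and Pla1a encodes a phospholipase A1 that acts on phosphatidylserine. Ephx2 encodes the soluble epoxide hydrolase, which breaks down epoxides of fatty acids. Slc28a1 encodes a sodium-dependent transporter that brings pyrimidine nucleosides into cells. Gpa33 encodes the A33 antigen, an immunoglobulin-type surface protein of intestinal epithelium. Myo1f encodes a class I unconventional myosin known from leukocytes.

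The 6 genes lie on 6 chromosomes and all are annotated as protein-coding in mm10. Pla2g1b lies at chr5:115466262-115474722 on the plus strand, Pla1a at chr16:38396117-38433145 on the minus strand and Ephx2 at chr14:66084374-66124500 on the minus strand. Slc28a1 lies at chr7:81114799-81170416, Gpa33 at chr1:166130238-166166510 and Myo1f at chr17:33555707-33607764, all on the plus strand. The promoters of 4 of the 6 genes, from 250 bases before to 50 bases after the RefSeq start in GRCm38.p6, are shown because the 6 genes were low in the same libraries while lying far apart. For Pla2g1b the RefSeq start lies upstream of the span given above, so its window ends before that span begins. The capitals mark each CG dinucleotide, the site of DNA methylation, and each sequence is read on the plus strand, from chr5:115465892-115466191 for Pla2g1b, chr7:81114549-81114848 for Slc28a1, chr1:166129971-166130270 for Gpa33 and chr17:33555457-33555756 for Myo1f.
Pla2g1b: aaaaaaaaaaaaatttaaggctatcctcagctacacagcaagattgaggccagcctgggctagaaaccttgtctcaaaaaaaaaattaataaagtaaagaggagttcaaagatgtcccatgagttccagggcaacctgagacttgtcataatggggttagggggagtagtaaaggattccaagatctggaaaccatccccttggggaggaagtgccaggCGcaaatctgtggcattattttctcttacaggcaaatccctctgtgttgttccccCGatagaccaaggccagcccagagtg
Slc28a1: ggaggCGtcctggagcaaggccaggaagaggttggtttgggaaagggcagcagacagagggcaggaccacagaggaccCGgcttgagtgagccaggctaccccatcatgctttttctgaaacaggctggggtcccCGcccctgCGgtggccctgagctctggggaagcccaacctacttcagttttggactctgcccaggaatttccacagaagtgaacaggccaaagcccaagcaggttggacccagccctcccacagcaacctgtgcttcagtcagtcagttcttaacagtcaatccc
Gpa33: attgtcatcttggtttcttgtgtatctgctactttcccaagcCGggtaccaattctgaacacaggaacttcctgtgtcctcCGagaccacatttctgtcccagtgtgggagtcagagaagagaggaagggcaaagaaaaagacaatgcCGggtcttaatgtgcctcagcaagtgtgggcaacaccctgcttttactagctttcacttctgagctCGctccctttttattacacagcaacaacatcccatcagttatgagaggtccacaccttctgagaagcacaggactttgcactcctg
Myo1f: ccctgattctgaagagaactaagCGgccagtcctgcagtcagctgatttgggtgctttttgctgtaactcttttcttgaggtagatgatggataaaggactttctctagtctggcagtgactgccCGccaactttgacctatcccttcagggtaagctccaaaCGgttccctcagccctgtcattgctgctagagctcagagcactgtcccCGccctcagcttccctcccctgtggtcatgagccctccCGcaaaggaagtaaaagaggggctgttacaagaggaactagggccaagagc
The windows held 2 CG dinucleotides for Pla2g1b, 4 each for Slc28a1 and Gpa33, and 5 for Myo1f, against a median of 7 over the 32851 RefSeq promoters of the same length. As few or fewer were found in 23.3% of all promoters for Pla2g1b, in 38.0% for Slc28a1 and Gpa33, and in 43.6% for Myo1f, so none of the 4 stood apart. On either strand, none of the 4 windows held AACCNGTT, the motif of GRHL factors, which 2.09% of all promoters held. Likewise none held AAGGTCA, a half-site of ESRRB-type receptors (4.72% of all promoters), ATGCAAAT, the octamer of POU factors (1.74%), or TATAAA, the TATA box (13.6%). The promoters of Pla1a and Ephx2 were not analysed here.

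Libraries held 8.87 to 22.1 M reads over the genes of the table, with a median of 16.2 M. Values are CPM, each gene's count as a share of its library's own total. A floor of 3 reads stood for 0.136 to 0.338 CPM, and it covers counting error only. Grhl2 averaged 41.2 to 78.3 CPM in the double-KO groups, 77.5 to 178 CPM in the Kmt2c-KO groups with GRHL2-ERT and 1.78 to 2.66 CPM in those without it; the part of this difference in Grhl2 in the results below was not tested. Kmt2c averaged 18.9 to 29.5 CPM in double-KO groups and 11.2 to 26.8 CPM in Kmt2c-KO groups, and Kmt2d 7.29 to 9.7 CPM and 6.91 to 18.2 CPM. A 3' tag outside the deleted part of a gene does not check a deletion. The tamoxifen 8 h double-KO replicate 2 was the shallowest library and correlated least with its group (0.9382 on the log2 scale). All 10 markers of naive embryonic stem cells were measured, and they summed to 2740 to 5020 CPM in double-KO and 2390 to 3630 CPM in Kmt2c-KO libraries. Single markers went opposite ways: in tamoxifen against the Kmt2c-KO line with GRHL2-ERT, 2 were called lower and 3 higher in double-KO cells at 16 h, and 4 lower and 4 higher at 8 h (limma). Of all genes, 8.89% were called lower and 38.7% higher at 16 h, and 12.4% and 28.1% at 8 h. Klf4 was 329 to 568 CPM in double-KO and 118 to 190 CPM in Kmt2c-KO libraries, Sox2 93.5 to 118 and 176 to 313 CPM, and Tdh 69.1 to 178 and 217 to 433 CPM.

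In every one of the 12 double-KO libraries, each of the 6 genes was lower than in every one of the 18 Kmt2c-KO libraries. Such complete separation towards lower values was found for 2.85% of all genes. Within single comparisons with the Kmt2c-KO line with GRHL2-ERT, double-KO libraries lay below without overlap for 14.1% of all genes at 16 h and 13.5% at 8 h of tamoxifen, and for 15.9% at 16 h and 13.5% at 8 h of ethanol. Over all libraries the double-KO mean was 1.07% of the Kmt2c-KO mean for Pla1a and 1.43% for Pla2g1b. It was 2.15% for Slc28a1, 2.62% for Ephx2, 2.83% for Gpa33 and 4.53% for Myo1f. The RNA was very low rather than absent, since no double-KO library was at 0 for any of the 6 genes. In bulk RNA, fewer cells with the transcript and less transcript per cell cannot be told apart. The ethanol libraries that chose the genes are among the 30, so these figures are a description.

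**Figure D1:**
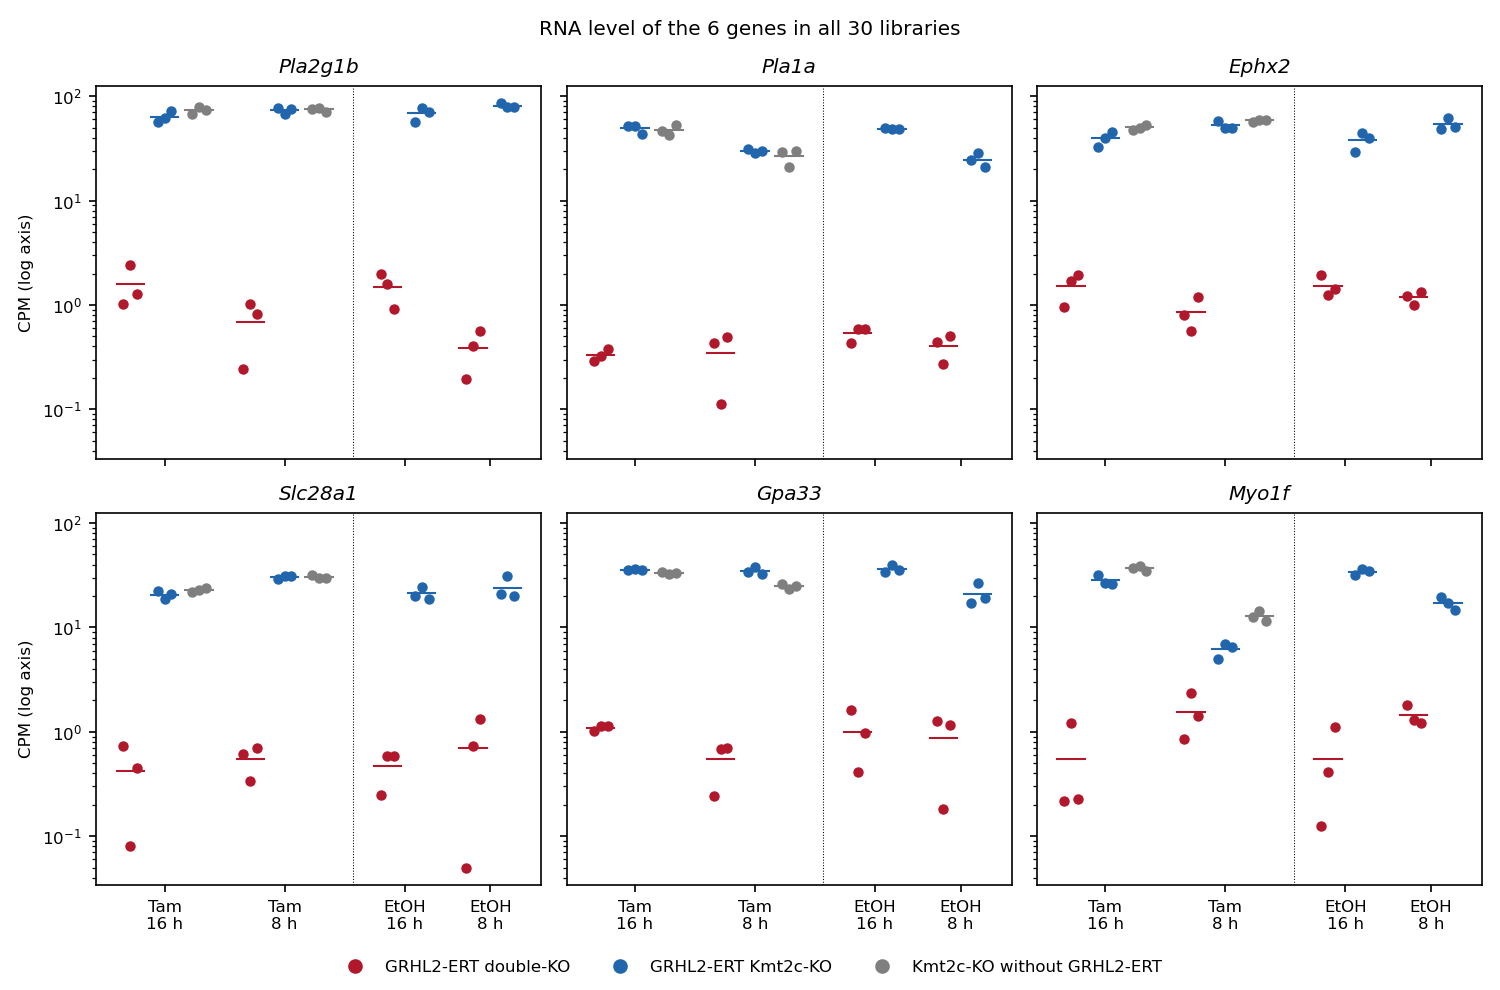
CPM on a log axis for each of the 6 genes in all 30 libraries, with the double-KO libraries in red, Kmt2c-KO with GRHL2-ERT in blue and Kmt2c-KO without it in grey; a point is a library, a short line a mean of 3, and the dotted line parts tamoxifen from ethanol. The red points reach at most 2.43 CPM, and the lowest point of the other lines is a Myo1f value of 5.03 CPM.

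In tamoxifen, double-KO cells had all 6 genes called lower relative to the Kmt2c-KO line with GRHL2-ERT, at 16 h and at 8 h (limma, Benjamini-Hochberg adjusted p under 0.05 over 12357 genes). Of all genes tested, 8.89% were called lower at 16 h and 12.4% at 8 h. Pla1a and Slc28a1 passed the filter on low values only through the Kmt2c-KO groups, where all 6 genes are high. Their double-KO means in tamoxifen were 0.33 and 0.42 CPM at 16 h, and 0.343 and 0.552 CPM at 8 h. The other genes also had a double-KO mean of 1 CPM or more. These were Pla2g1b (1.58), Ephx2 (1.53) and Gpa33 (1.09) at 16 h and Myo1f (1.55) at 8 h. Ranked from the strongest fall among the 12357 genes, Pla1a was 1st, Pla2g1b 3rd, Myo1f 4th, Gpa33 5th, Ephx2 6th and Slc28a1 7th at 16 h. At 8 h Pla2g1b was 1st, Ephx2 2nd, Gpa33 4th, Pla1a 5th and Slc28a1 6th, and Myo1f was 254th. Log2 fold changes are on the scale of CPM + 1, which understates the change of genes this low. The median gene moved by 0.35 at 16 h and 0.18 at 8 h on this scale, towards the double-KO cells. With median-of-ratios scaling, which removes that shift, 19.7% of genes were called lower and 19.8% higher at 16 h, against 8.89% and 38.7% without it. At 8 h the shares were 19.1% and 17.7% with this scaling, against 12.4% and 28.1% without it, and all 6 genes were called lower at both times under either scaling.

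Pla2g1b, the secreted phospholipase, was the most reduced at 8 h. In 16 h tamoxifen the double-KO libraries held 1.02, 2.43 and 1.28 CPM, against 56.1, 61.2 and 71.6 CPM in Kmt2c-KO with GRHL2-ERT and 67.6, 78.1 and 74.5 CPM in Kmt2c-KO without it. In 8 h tamoxifen they held 0.245, 1.02 and 0.814 CPM, against 76.3, 68.0 and 75.0 CPM and, without GRHL2-ERT, 75.9, 77.7 and 70.8 CPM. The double-KO values were apart from both other lines at both times, while those lines overlapped each other. Against Kmt2c-KO with GRHL2-ERT the log2 fold change was -4.67 ± 0.19 (SE; limma adjusted p = 3.6e-12) at 16 h and -5.48 ± 0.19 (limma adjusted p = 4.1e-13) at 8 h. In ethanol the double-KO libraries held 1.98, 1.59 and 0.908 CPM at 16 h, against 56.7, 77.9 and 71.0 CPM in Kmt2c-KO, and 0.196, 0.408 and 0.557 CPM at 8 h, against 86.2, 79.4 and 78.3 CPM.

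Pla1a, the phosphatidylserine-specific enzyme, had the lowest double-KO mean relative to Kmt2c-KO. In 16 h tamoxifen double-KO libraries held 0.291, 0.324 and 0.376 CPM, against 52.3, 51.8 and 43.3 CPM in Kmt2c-KO with GRHL2-ERT and 46.0, 42.3 and 52.5 CPM in Kmt2c-KO without it. In 8 h tamoxifen they held 0.428, 0.113 and 0.489 CPM, against 31.1, 28.4 and 29.8 CPM and, without GRHL2-ERT, 29.2, 21.0 and 29.6 CPM. The double-KO values rest on 1 to 10 reads a library over all treatments, and the lowest Kmt2c-KO library was 35.6 times the highest double-KO library. The log2 fold change was -5.23 ± 0.17 (SE; limma adjusted p = 1.7e-13) at 16 h and -4.53 ± 0.17 (limma adjusted p = 8e-13) at 8 h. In ethanol the double-KO libraries held 0.434, 0.589 and 0.584 CPM at 16 h, against 49.9, 48.4 and 48.5 CPM, and 0.441, 0.272 and 0.506 CPM at 8 h, against 24.3, 28.6 and 21.2 CPM.

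Ephx2, the soluble epoxide hydrolase, stayed under 2 CPM in every double-KO library. In 16 h tamoxifen those libraries held 0.947, 1.7 and 1.95 CPM, against 32.7, 40.0 and 45.6 CPM in Kmt2c-KO with GRHL2-ERT and 47.7, 50.0 and 52.8 CPM in Kmt2c-KO without it. In 8 h tamoxifen they held 0.795, 0.565 and 1.19 CPM, against 57.4, 49.7 and 50.1 CPM and, without GRHL2-ERT, 57.2, 59.1 and 59.3 CPM. Double-KO libraries were low throughout, with 5 to 31 reads each over all treatments. The Kmt2c-KO libraries with GRHL2-ERT lay below those without it at 16 h, a difference limma did not call, and overlapped them at 8 h. The log2 fold change was -4.01 ± 0.17 (SE; limma adjusted p = 7.1e-12) at 16 h and -4.86 ± 0.17 (limma adjusted p = 4.4e-13) at 8 h. In ethanol the double-KO libraries held 1.92, 1.24 and 1.43 CPM at 16 h, against 29.0, 44.5 and 39.8 CPM, and 1.22, 0.998 and 1.32 CPM at 8 h, against 48.9, 61.2 and 50.8 CPM.

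Slc28a1, the nucleoside transporter, overlapped between the Kmt2c-KO lines at both times of tamoxifen. In 16 h tamoxifen double-KO libraries held 0.728, 0.0811 and 0.451 CPM, against 22.1, 18.6 and 21.1 CPM in Kmt2c-KO with GRHL2-ERT and 22.0, 22.6 and 23.9 CPM in Kmt2c-KO without it. In 8 h tamoxifen they held 0.612, 0.339 and 0.706 CPM, against 29.2, 31.4 and 31.2 CPM and, without GRHL2-ERT, 31.7, 29.6 and 30 CPM. Double-KO and Kmt2c-KO values did not overlap, and 3 of the 12 double-KO libraries had 3 reads or fewer. The log2 fold change was -3.95 ± 0.17 (SE; limma adjusted p = 7.5e-12) at 16 h and -4.35 ± 0.17 (limma adjusted p = 1.6e-12) at 8 h. In ethanol the double-KO libraries held 0.248, 0.589 and 0.584 CPM at 16 h, against 20.2, 24.6 and 18.8 CPM, and 0.049, 0.726 and 1.32 CPM at 8 h, against 21.0, 30.9 and 19.9 CPM.

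Gpa33, the A33 antigen, varied little between replicates in 16 h tamoxifen, and more in the double-KO libraries of the other treatments. In 16 h tamoxifen double-KO libraries held 1.02, 1.14 and 1.13 CPM, against 35.7, 36.1 and 35.6 CPM in Kmt2c-KO with GRHL2-ERT and 34.2, 32.3 and 33 CPM in Kmt2c-KO without it. In 8 h tamoxifen they held 0.245, 0.677 and 0.706 CPM, against 33.9, 38.1 and 32.3 CPM and, without GRHL2-ERT, 26.3, 23.3 and 25.1 CPM. Double-KO values were the lowest at each time, and at 16 h and at 8 h the Kmt2c-KO libraries with GRHL2-ERT were also above those without it. The log2 fold change was -4.14 ± 0.15 (SE; limma adjusted p = 4.7e-13) at 16 h and -4.55 ± 0.15 (limma adjusted p = 2.1e-13) at 8 h. In ethanol the double-KO libraries held 1.61, 0.412 and 0.973 CPM at 16 h, against 33.8, 39.3 and 35.2 CPM, and 1.27, 0.181 and 1.16 CPM at 8 h, against 17.0, 26.9 and 19.2 CPM.

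Myo1f, the leukocyte myosin, was the exception in size at 8 h. In 16 h tamoxifen double-KO libraries held 0.218, 1.22 and 0.225 CPM, against 32.0, 26.7 and 26.3 CPM in Kmt2c-KO with GRHL2-ERT and 37.5, 38.6 and 34.4 CPM in Kmt2c-KO without it. In 8 h tamoxifen they held 0.856, 2.37 and 1.41 CPM, against 5.03, 6.9 and 6.55 CPM and, without GRHL2-ERT, 12.7, 14.3 and 11.5 CPM. The 3 lines were thus separate from each other at 16 h and at 8 h, with the double-KO cells lowest and the Kmt2c-KO cells without GRHL2-ERT highest. The log2 fold change was -4.29 ± 0.24 (SE; limma adjusted p = 2.1e-10) at 16 h and -1.52 ± 0.24 (limma adjusted p = 7.3e-05) at 8 h. In ethanol the double-KO libraries held 0.124, 0.412 and 1.1 CPM at 16 h, against 31.9, 36.5 and 34.4 CPM, and 1.81, 1.31 and 1.21 CPM at 8 h, against 19.5, 17.2 and 14.8 CPM.

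Set against Kmt2c-KO cells without GRHL2-ERT, all 6 genes were again called lower in double-KO cells at both times (limma), beside 9.65% of all genes at 16 h and 12% at 8 h. These comparisons share the double-KO libraries with those above. The log2 fold changes ran from -5.17 ± 0.17 (SE) for Pla1a to -4.03 ± 0.15 for Gpa33 at 16 h. At 8 h they ran from -5.51 ± 0.19 for Pla2g1b to -2.48 ± 0.24 for Myo1f.

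**Figure D2:**
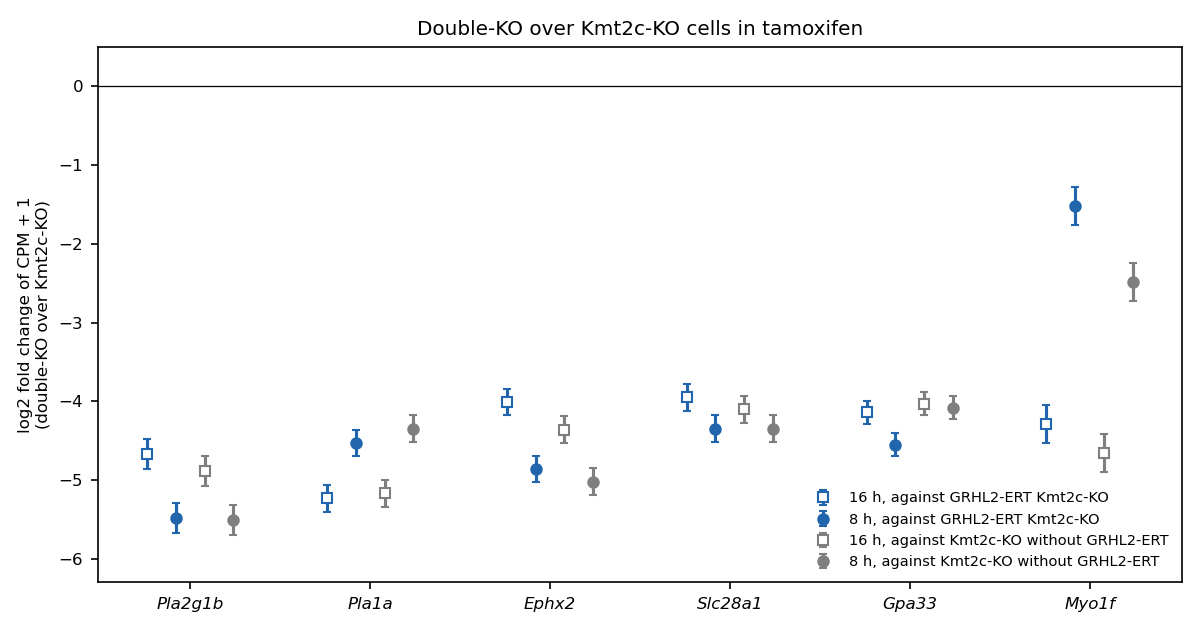
Log2 fold change of CPM + 1, double-KO over Kmt2c-KO, with the SE of the model as bars, for each gene in tamoxifen; blue is against Kmt2c-KO with GRHL2-ERT, grey against Kmt2c-KO without it, open squares are 16 h and filled circles 8 h. All values lie between -5.51 and -3.95 except Myo1f at 8 h, at -1.52 and -2.48.

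Between the Kmt2c-KO lines, with and without GRHL2-ERT, the 6 genes differed by at most 0.96 on the log2 scale in tamoxifen. At 16 h limma called none of the 6 genes between the Kmt2c-KO lines that have and lack GRHL2-ERT, beside 0.591% of all genes. No gene of the 6 had an unadjusted p under 0.05 there, and the values ran from -0.37 ± 0.24 (SE) for Myo1f to 0.11 ± 0.15 for Gpa33. At 8 h Myo1f was called lower with GRHL2-ERT, at a log2 fold change of -0.96 ± 0.24 (limma adjusted p = 0.035), beside 0.882% of all genes called lower. That call was lost on leaving out any 1 of the 6 libraries (adjusted p = 0.07 to 0.17), with the direction kept. Gpa33 was 0.46 ± 0.15 higher with GRHL2-ERT at 8 h and missed the threshold (limma adjusted p = 0.12).

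Between 16 h and 8 h of tamoxifen the genes changed in both directions. The ribosomal RNA precursor Rn45s, whose share can move with the quality of RNA or library, took 1.89 to 2.58% of reads in the 16 h and 3.1 to 7.37% in the 8 h tamoxifen libraries, without overlap, and its part in the changes over time was not tested. The median gene changed by -0.15 in each Kmt2c-KO line and by 0.01 in double-KO cells. In Kmt2c-KO cells with GRHL2-ERT, limma called Myo1f higher at 16 h (2.04 ± 0.24, adjusted p = 1.2e-05), Pla1a higher (0.70) and Slc28a1 lower (-0.55), beside 33.5% of all genes called in either direction. Myo1f averaged 28.3 ± 3.16 CPM at 16 h and 6.16 ± 0.994 CPM at 8 h there (SD, n = 3 each). In Kmt2c-KO cells without GRHL2-ERT, Myo1f (1.45), Pla1a (0.81) and Gpa33 (0.40) were called higher at 16 h, beside 31.5% of all genes, with Gpa33 at an adjusted p of 0.046 that was lost without any 1 of the 6 libraries (limma, 0.065 to 0.14). The Slc28a1 call was lost on leaving out 3 of the 6 libraries in turn (limma adjusted p up to 0.078) and with median-of-ratios scaling (-0.40, limma adjusted p = 0.079). Over all genes, this scaling gave 1976 lower and 2023 higher at 16 h in Kmt2c-KO cells with GRHL2-ERT, against 2903 and 1241 without it, and 1636 and 1823 in those without GRHL2-ERT, against 2799 and 1098. In double-KO cells Pla2g1b (0.60) and Gpa33 (0.45) were called higher and Myo1f lower (-0.73) at 16 h, beside 28.9% of all genes. Those double-KO levels are near 1 CPM, and the 3 calls fell to 0 without replicate 3 at 16 h, and to 1 without replicate 2 at 16 h or without replicate 1 at 8 h. The 3568 genes called there over the whole table were 1319 without replicate 1 and 1618 without replicate 3 at 16 h, 1890 without replicate 2 and 5396 without replicate 3 at 8 h, 67 with array weights, and 10 with the libraries of the contrast alone.

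**Figure D3:**
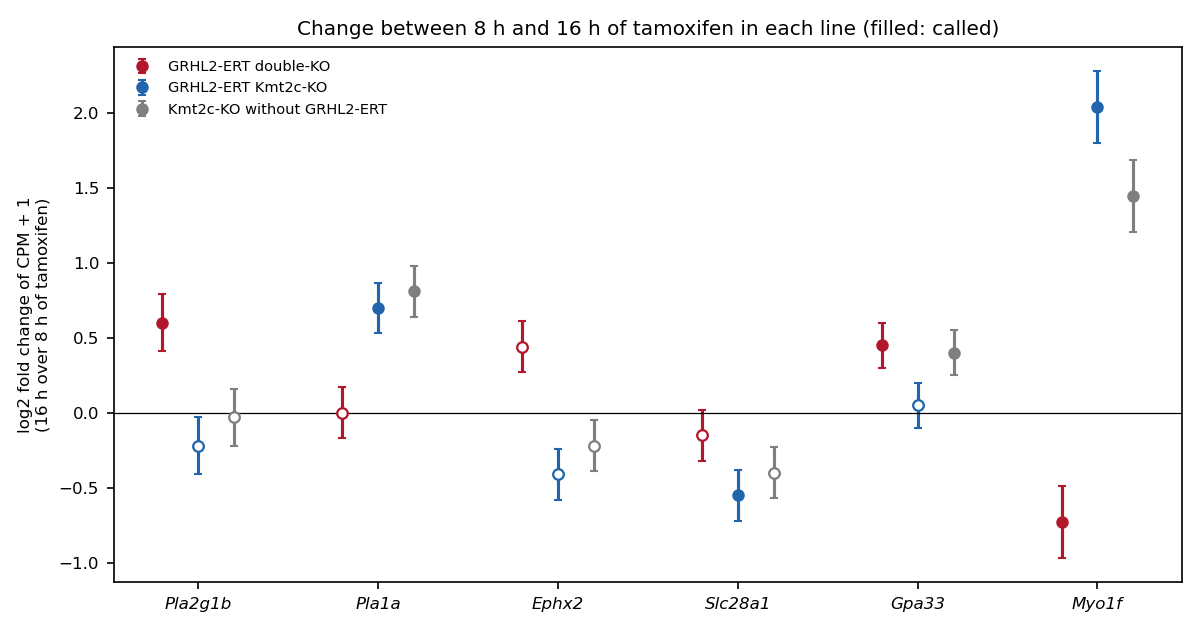
Log2 fold change of CPM + 1, 16 h over 8 h of tamoxifen, with the SE of the model as bars, for each gene in double-KO (red), Kmt2c-KO with GRHL2-ERT (blue) and Kmt2c-KO without it (grey); filled points were called by limma and open points were not. Myo1f is above 0 in both Kmt2c-KO lines, at 2.04 and 1.45, and below 0 in double-KO cells, at -0.73.

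The change of the genotype difference between 16 h and 8 h was itself tested. It was called for Myo1f, whose fall was larger at 16 h by a log2 value of -2.77 ± 0.34 (SE; limma adjusted p = 0.00012), and for Ephx2, whose fall was smaller at 16 h (0.85 ± 0.25, limma adjusted p = 0.047). Of all genes 5.95% were called. The Myo1f call held on leaving out any 1 of the 12 libraries, while that of Ephx2 was lost for 8 of the 12 (adjusted p up to 0.13) and under 5 of 8 other settings, among them median-of-ratios scaling (0.67, limma adjusted p = 0.11). The median gene moved by 0.17 in this contrast, and over all genes 156 were called lower and 579 higher, against 232 and 335 with that scaling. Pla2g1b (0.82, adjusted p = 0.086), Pla1a (-0.70, adjusted p = 0.091), Slc28a1 (0.40, adjusted p = 0.36) and Gpa33 (0.41, adjusted p = 0.28) did not pass by limma. Without the tamoxifen 8 h double-KO replicate 2, the shallowest library, 4 of the 6 genes were called, beside 1159 of all genes, against 735 with it. Over all left-out libraries that number ran from 458 to 1488.

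Tamoxifen against ethanol within a line is given as a description, since the ethanol libraries chose the genes. In Kmt2c-KO cells with GRHL2-ERT at 8 h, Myo1f averaged 6.16 ± 0.994 CPM in tamoxifen and 17.2 ± 2.31 CPM in ethanol (SD, n = 3 each), a ratio of 0.359. Gpa33 averaged 34.7 ± 3.0 CPM in tamoxifen and 21.0 ± 5.18 CPM in ethanol, a ratio of 1.65, and Pla2g1b 73.1 ± 4.42 and 81.3 ± 4.29 CPM. These 3 genes did not overlap between treatments, as 24.4% of all genes did not. In that line at 16 h all 6 genes overlapped (16.3% of all genes did not). In double-KO cells Pla1a at 16 h did not overlap, at 0.33 ± 0.0426 CPM in tamoxifen and 0.536 ± 0.088 CPM in ethanol (13.4% of all genes did not), and at 8 h all 6 overlapped (8.97% did not).

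Among Kmt2c-KO groups, the order of mean levels followed time for Pla1a and Myo1f, higher at 16 h, and for Ephx2 and Slc28a1, higher at 8 h. Ephx2 averaged 37.8 to 50.2 CPM at 16 h and 52.4 to 58.5 CPM at 8 h, and Slc28a1 20.6 to 22.9 and 23.9 to 30.6 CPM. For both of these, libraries of 16 h and 8 h overlapped. Pla1a averaged 46.9 to 49.1 CPM in the 3 Kmt2c-KO groups at 16 h, whose libraries overlapped in this order, and 24.7 to 29.8 CPM in the 3 at 8 h, which also overlapped one another in order. For Myo1f the 16 h groups averaged 28.3 to 36.8 CPM. Its 8 h groups, at 17.2, 12.8 and 6.16 CPM, were each separate from the next. Each of the 6 genes except Myo1f had at most 1 gap between neighbouring Kmt2c-KO groups. In the double-KO groups, no gene of the 6 had a gap between neighbours in the order of levels.

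By the ethanol difference averaged over both times, put here on the scale of log2(CPM + 1), the 6 genes stood at places 1 (Pla2g1b, -5.36), 2 (Pla1a, -4.61), 4 (Ephx2, -4.28), 5 (Gpa33, -3.92), 6 (Slc28a1, -3.92) and 8 (Myo1f, -3.73) of 12414 genes. Between them stood Mcf2, a guanine nucleotide exchange factor, at place 3 (-4.55), and Dusp27, an atypical phosphatase, at place 7 (-3.84). Dppa3, a gene of germ cells and early embryos, stood outside at place 10 (-3.50), with genes of predicted or clone names left unnamed. Its difference was -2.18 at 16 h (place 69) and -4.82 at 8 h (place 2). On the scale of the deposited columns, from which the genes were chosen, the places were 1 (Pla2g1b), 2 (Pla1a), 4 (Slc28a1), 6 (Ephx2), 7 (Gpa33) and 10 (Myo1f). Mcf2 stood there at place 5, Dusp27 at 11 and Dppa3 at 22, so the order depends on the scale. On either scale the 6 genes are most but not all of the largest ethanol falls.

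The pattern over the 30 libraries was shared with other genes, given here as a description without a test, since all points share the same genotype gap. The 6 genes most like the mean of the set, by Pearson correlation of log2(CPM + 1), were Mcf2 (0.990), Pdcl2 (0.987), Pgk1 (0.984), Gng2 (0.981), Glo1 (0.981) and Dnmt3l (0.976). Mcf2 averaged 1.46 CPM in double-KO and 54.0 CPM in Kmt2c-KO libraries. Dnmt3l, a cofactor of DNA methyltransferases, averaged 12.4 CPM and 131 CPM. Pgk1, an enzyme of glycolysis, averaged 285 CPM and 594 CPM, so a like pattern can go with a much smaller fall. Per gene the closest was Upp1 for Pla2g1b (0.983), Mcf2 for Pla1a (0.990) and Gpa33 (0.978), Pgk1 for Ephx2 (0.985), Aim2 for Slc28a1 (0.986) and Dppa2 for Myo1f (0.968).

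Neighbours in the genome were lower beside Gpa33 and one side of Slc28a1, and mixed elsewhere. Dusp27, 2.32 kb from Gpa33 and the nearest measured gene on its lower-coordinate side, averaged 1.11 ± 0.747 CPM in 12 double-KO and 26.2 ± 9.87 CPM in 18 Kmt2c-KO libraries (SD). It fell by 3.69 at 16 h and by 3.16 at 8 h on the log2 scale (limma adjusted p = 1.3e-10 and 1.2e-09, tamoxifen, against Kmt2c-KO with GRHL2-ERT). Mael, a gene of germ cells that restrains transposons, lies 34.7 kb away on the other side and was also called lower (-1.05 at 16 h and -1.99 at 8 h). Alpk3, 9.19 kb from Slc28a1, was lower at both times (-1.23 and -1.18), while Pde8a on the other side was not called. Both neighbours of Pla2g1b, Cox6a1 and Sirt4, were not called. Beside Pla1a, Adprh was lower at 16 h (-0.67) and Cox17 at 8 h (-1.72 ± 0.61 SE, limma adjusted p = 0.036). Cox17 was not called at 16 h (-1.19, limma adjusted p = 0.12). It varied widely, at 148 ± 90.6 CPM in double-KO and 258 ± 174 CPM in Kmt2c-KO libraries (SD). Beside Ephx2, Gulo was lower at 16 h (-1.25) and Ptk2b was not called. Beside Myo1f, Zfp414 was higher at 16 h (0.62, a call lost with median-of-ratios scaling, at 0.28 and a limma adjusted p of 0.37) and Adamts10 at 8 h (1.31).

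Relatives of the 6 genes were called in both directions, as were genes at large. Counts are of genes called by limma in tamoxifen between double-KO and Kmt2c-KO cells with GRHL2-ERT, and the lists exclude the 6 genes. They stand beside shares over all genes of 8.89% lower and 38.7% higher at 16 h, and 12.4% lower and 28.1% higher at 8 h, and no count below is read as particular to its list. Of 25 measured phospholipases and lysophospholipases, 3 were lower and 12 higher at 16 h, and 4 lower and 5 higher at 8 h. Their median log2 fold change was 0.46 at 16 h and 0.05 at 8 h, against 0.35 and 0.18 over all genes. Under median-of-ratios scaling these counts were 7 lower and 7 higher at 16 h, and 5 lower and 2 higher at 8 h. Counts under that scaling, here and for the lists below, stand beside other shares over all genes. Those were 19.7% lower and 19.8% higher at 16 h, and 19.1% lower and 17.7% higher at 8 h. Secreted enzymes were mixed: Pla2g5 and Pla2g10 went the way of Pla2g1b, Pla2g2d was not called, and Pla2g12a was higher at 16 h (0.77, limma adjusted p = 0.0006). That Pla2g12a call was lost with median-of-ratios scaling (0.41, limma adjusted p = 0.063). The other phospholipase called lower at 16 h was Liph, a phosphatidic acid-selective phospholipase A1 (-1.88, limma adjusted p = 5.2e-06). Liph, Pla2g2d and Pla2g12a were named after their values were seen. Pla2g5 averaged 0.78 ± 0.194 CPM in double-KO and 10.7 ± 1.93 CPM in Kmt2c-KO cells at 16 h (SD, n = 3 each; log2 fold change -2.71 ± 0.19, limma adjusted p = 4.7e-09), and fell by 2.97 at 8 h. Pla2g10 averaged 0.338 ± 0.213 and 8.34 ± 0.168 CPM at 16 h (log2 fold change -2.81 ± 0.23, limma adjusted p = 2.8e-08), and fell by 1.64 at 8 h. Pla2g4a, the cytosolic phospholipase that releases arachidonic acid, went the other way, with 9.93 ± 0.92 CPM in double-KO and 0.457 ± 0.0888 CPM in Kmt2c-KO cells at 16 h (2.91 ± 0.24, limma adjusted p = 3.2e-08).

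Of 12 measured epoxide hydrolases and eicosanoid enzymes, 0 were called lower and 6 higher by limma at 16 h, and 2 lower and 3 higher at 8 h; with median-of-ratios scaling they were 1 and 4, and 3 and 2. The median was 0.52 and 0.06, against 0.35 and 0.18 over all genes. Ephx1, the microsomal epoxide hydrolase, rose where Ephx2 fell, at 15.5 ± 2.5 CPM in double-KO and 1.86 ± 0.397 CPM in Kmt2c-KO cells at 16 h (2.53 ± 0.28, limma adjusted p = 1.1e-06). Cyp2j6, a relative of the arachidonic acid epoxygenases, was higher by 1.59 ± 0.25 at 16 h and 1.53 ± 0.25 at 8 h. Ptgs2, the inducible prostaglandin synthase, averaged 4.34 ± 3.06 CPM in double-KO and 0.313 ± 0.365 CPM in Kmt2c-KO cells at 16 h (1.81 ± 0.39). Its 8 h call (1.01, adjusted p = 0.045) was lost with median-of-ratios scaling (limma adjusted p = 0.057).

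Of 18 measured genes of nucleoside transport and salvage, 2 were lower and 7 higher at 16 h, and 4 lower and 4 higher at 8 h, with medians of 0.35 and 0.28 against 0.35 and 0.18 over all genes. With median-of-ratios scaling they were 4 and 3, and 5 and 2. Upp1, the uridine phosphorylase, fell with Slc28a1, at 89.2 ± 4.69 CPM in double-KO and 258 ± 7.52 CPM in Kmt2c-KO cells at 16 h (-1.53 ± 0.089, limma adjusted p = 3.7e-10). Slc29a1, an equilibrative nucleoside transporter, was higher by 0.79 at 16 h (limma adjusted p = 0.0027), a call lost with median-of-ratios scaling (0.41, limma adjusted p = 0.057).

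Of 8 measured relatives of Gpa33 in the A33 and CTX immunoglobulin family, 2 were lower and 3 higher at 16 h, and 2 lower and 1 higher at 8 h, with medians of -0.16 and 0.00 against 0.35 and 0.18 over all genes. With median-of-ratios scaling they were 4 and 2, and 2 and 0. Of 13 measured unconventional myosins, 2 were lower and 4 higher at 16 h, and 1 lower and 2 higher at 8 h, with medians of 0.27 and -0.16 against the same 0.35 and 0.18. With median-of-ratios scaling they were 3 and 3, and 3 and 2. Myo5c fell by 1.28 at 16 h and by 1.52 at 8 h (limma adjusted p = 0.0038 and 0.0014), at low levels of 2.0 ± 1.21 CPM in double-KO and 6.0 ± 1.97 CPM in Kmt2c-KO cells at 16 h. Myo9b was higher by 1.13 and 1.05 (limma adjusted p = 0.00022 and 0.00058), with 13.3 ± 1.89 and 5.59 ± 1.09 CPM at 16 h. Each gene named for its family kept its direction under that scaling where it had been called. The calls of Ptgs2 at 8 h, of Slc29a1 and of Pla2g12a were lost.

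**Figure D4:**
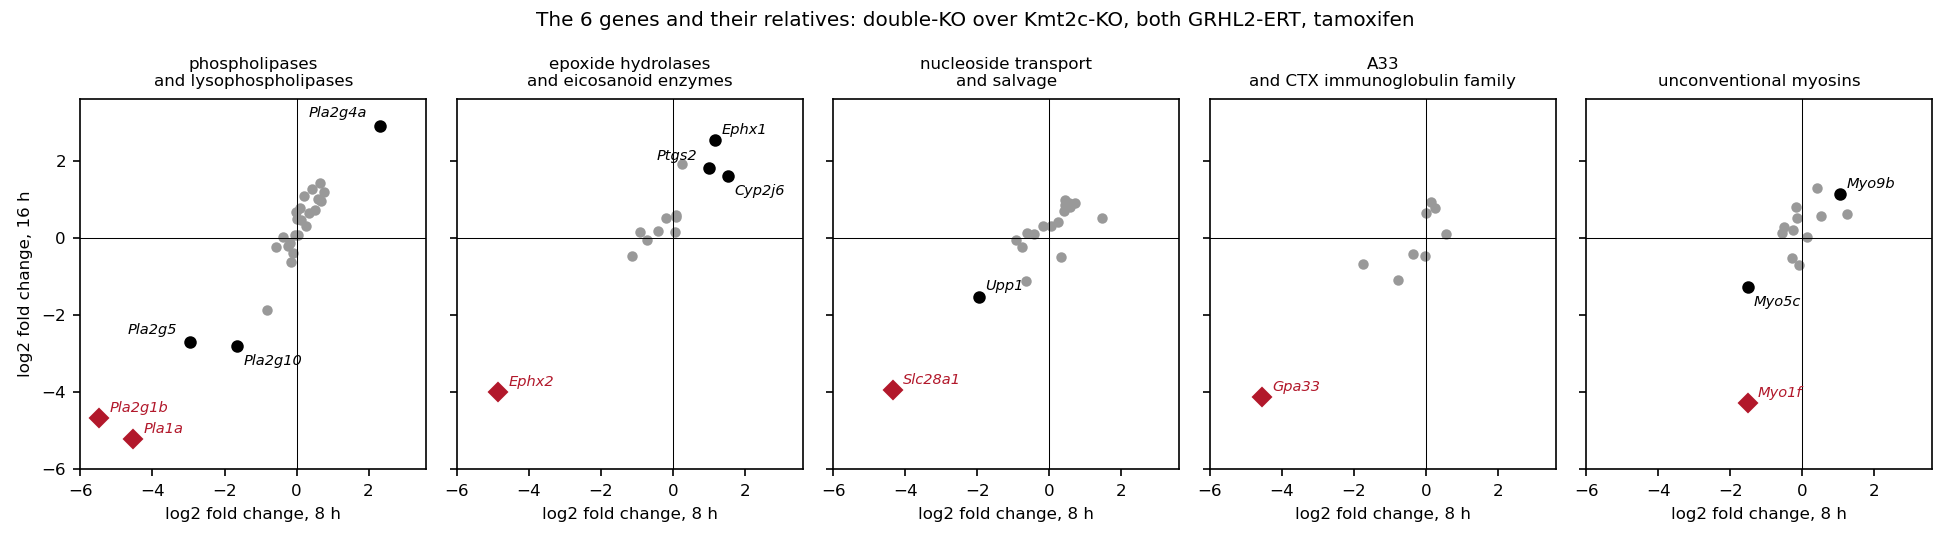
Log2 fold change of CPM + 1, double-KO over Kmt2c-KO with GRHL2-ERT in tamoxifen, at 16 h on the vertical axis and 8 h on the horizontal, for the 6 genes (red diamonds) and their relatives in 5 lists (circles; black and named where called with a change of at least 1 at both times). The 6 genes lie further towards the lower left than their relatives, apart from Myo1f at 8 h.

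The double-KO cells also differed in marker genes of other cell types, whose part in these results was not tested. Of 10 primitive endoderm markers 7 were measured, and they summed to 21.8 to 50.9 CPM in double-KO and 1.8 to 10.1 CPM in Kmt2c-KO libraries. Dab2 held most of the double-KO sum, at 12.5 to 32.4 CPM and 0.375 to 4.47 CPM. Gata6 was 0.612 to 3.44 and 0 to 0.367 CPM, while Gata4, Pdgfra, Foxa2, Lama1 and Amn overlapped. In tamoxifen against Kmt2c-KO with GRHL2-ERT, 5 of the 7 were called higher at 16 h and 3 at 8 h, and 0 lower (limma). Of all genes, 38.7% were called higher at 16 h and 28.1% at 8 h. Of 8 leukocyte markers 2 were measured. Laptm5 was 133 to 208 CPM in double-KO and 30.9 to 60.7 CPM in Kmt2c-KO libraries, and Coro1a overlapped, at 0.408 to 1.6 CPM and 0.184 to 1.89 CPM. Of 10 intestinal markers 4 were measured, at sums of 10.4 to 68.9 CPM and 9.4 to 24.6 CPM. The single measured pancreatic acinar marker, Cela2a, was 0 to 1.75 CPM and 0.215 to 4.49 CPM. Fibroblast markers (3 of 8) summed to 1.59 to 5.64 CPM and 0 to 2.44 CPM, and trophoblast markers (5 of 8) to 52.0 to 106 CPM and 35.2 to 126 CPM.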

How the data were processed

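Each library column of the deposited table holds the log2 of CPM plus a common offset of 0.124871; the authors' means and differences were not used. Salmon, DESeq2 1.34.0 and mm10 are named in the submitters' processing notes, without the step each served. The labels' protocols give a QuantSeq 3' kit and single-end reads. The shortened column names of the Kmt2c-KO lines were told apart by the treatments the labels give. Each gene of the table reached 1 CPM in 6 or more libraries, so a gene low in double-KO cells can enter through the other lines. Reads were recovered from the spacing of values under 2 CPM, of which 95.9% to 97.6% were whole within 0.05 reads.

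Values were returned to CPM and the log2 of CPM + 1 was fitted in limma 3.58.1 (R 4.3.3) over the 18 tamoxifen libraries, with 6 group means, robust moderation, a variance trend and 12 degrees of freedom left over. A group mean of 1 CPM or more was required, which 12357 genes met and 71 did not; p-values were two-sided and adjusted by Benjamini-Hochberg over all of them in each of 10 contrasts. The script was tested on simulated data. Named genes were the 6 genes, their nearest measured neighbours, the most correlated genes and relatives called with a log2 fold change of at least 1 at both times. Slc29a1, Liph, Pla2g2d and Pla2g12a were named after their values were seen. The 6 genes and the gene lists were chosen with earlier results of these data known. Coordinates are from GENCODE mouse release 21, where 11969 symbols (96.3%) matched, and promoters are from RefSeq GRCm38.p6. Alternatives tried were pseudocounts of 0.1 and 5, no filter, all 30 libraries, the libraries of 1 contrast, median-of-ratios scaling, array weights, a replicate block and leaving out each library.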

Additional observations from a re-analysis of the deposited data

Results flagged for a closer look

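The difference between double-KO and Kmt2c-KO cells in tamoxifen itself differed between 16 h and 8 h for 2 of the 6 genes, by a test of that difference (limma). For Myo1f the fall was larger at 16 h, by a log2 value of -2.77 ± 0.34 (SE), and the double-KO level was 0.553 ± 0.574 CPM at 16 h and 1.55 ± 0.766 CPM at 8 h (SD, n = 3 each), while the Kmt2c-KO level with GRHL2-ERT was 28.3 ± 3.16 CPM and 6.16 ± 0.994 CPM. For Ephx2 the fall was smaller at 16 h, by 0.85 ± 0.25 (limma adjusted p = 0.047), a call lost on leaving out 8 of the 12 libraries in turn and under 5 of 8 other settings, with double-KO levels of 1.53 ± 0.524 CPM and 0.851 ± 0.319 CPM and Kmt2c-KO levels of 39.4 ± 6.47 CPM and 52.4 ± 4.35 CPM.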

How the results depend on the processing

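All 6 genes were called lower in double-KO than in either Kmt2c-KO line, at 16 h and at 8 h, under each of the 9 other settings and each of the 6 left-out libraries of a comparison. The count for GRHL2-ERT in Kmt2c-KO cells at 16 h was also unaffected, at 0. At 8 h the count of 1 was 0 with a pseudocount of 0.1, and 2 with a pseudocount of 5, with the libraries of the contrast alone or with array weights, and 0 on leaving out any library. Between 16 h and 8 h, the count of 3 in double-KO cells was 0 with a pseudocount of 5, with the libraries of the contrast alone or with array weights, and 0 to 4 on leaving out a library. The count of 3 in Kmt2c-KO cells with GRHL2-ERT was 1 with a pseudocount of 0.1. Median-of-ratios scaling lost Slc28a1 from it, leaving 2. The count of 2 for the change of the genotype difference was 1 with a pseudocount of 0.1, with the libraries of the contrast alone or with array weights, and 1 to 4 on leaving out a library. It was also 2 under median-of-ratios scaling and when 5 CPM was added before the log, but there Ephx2 was lost (limma adjusted p = 0.11 and 0.065) and Pla1a was called lower (limma adjusted p = 0.048 and 0.037). The cause was not tested. No direction of a called gene turned. Over all genes, the number called in the contrast of double-KO over Kmt2c-KO with GRHL2-ERT ran from 4829 to 8393 at 16 h, against 5880, and from 2029 to 5636 at 8 h, against 5003. For 16 h over 8 h in Kmt2c-KO cells it ran from 2860 to 6772 with GRHL2-ERT, against 4144, and from 2604 to 6313 without it, against 3897. No pairing by replicate number was seen in the tamoxifen libraries: deviations of same-numbered libraries of a time correlated at -0.46 to 0.15 and of others at -0.21 to 0.37. With 3 libraries a group, this cannot show that same-numbered libraries were handled apart. With a replicate block, the genotype counts were 6 of 6 as without it, and Gpa33 was no longer called over time in the line without GRHL2-ERT (limma adjusted p = 0.06). Depth limits the double-KO values, which rest on 1 to 37 reads a gene and library.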

Other observations

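Over all 30 libraries, 29 of the 12428 genes lay lower in every double-KO library than in every Kmt2c-KO library and had a double-KO mean under 5% of the Kmt2c-KO mean. The 6 genes were among them, and 64 of the 12428 met the mirror of that rule. The limit of 5% was set after the values were seen, so the genes below are a description. Outside the 6 genes, the highest in Kmt2c-KO libraries were Mcf2, at means of 1.46 CPM in double-KO and 54.0 CPM in Kmt2c-KO libraries, Dppa3 (2.09 and 42.6 CPM) and Dusp27 (1.11 and 26.2 CPM). Others were far lower, and those named were picked by hand, so no tissue is read from them. They include Clps, the cofactor of pancreatic lipase, at 0.00676 and 1.54 CPM, and Spink1, a trypsin inhibitor, at 0.021 and 0.997 CPM. Aire, a transcription factor of thymic epithelium, averaged 0.117 and 4.19 CPM, Dok2, an adaptor of blood cells, 0.231 and 6.11 CPM, and Nphs1, the nephrin of kidney podocytes, 0.068 and 2.38 CPM. The double-KO means of Clps, Spink1, Aire and Nphs1 lie under the floor of 3 reads, which stood for 0.136 to 0.338 CPM. Pdcl2 averaged 0.291 and 13.7 CPM, and Lhfpl5 was at 0 in the 12 double-KO libraries and averaged 1.22 CPM in the 18 Kmt2c-KO libraries.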
